A study of Mus musculus with 12 samples.

Results

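Asxl2 encodes a chromatin protein of the Additional sex combs family. ASXL proteins bind the nuclear deubiquitinase BAP1 and form with it the PR-DUB complex, which takes off the ubiquitin that Polycomb repressive complex 1 places on histone H2A. Macrophages grown from bone marrow depend on M-CSF, the ligand of the receptor tyrosine kinase encoded by Csf1r, and in culture they both divide and acquire the receptors, lysosomes and lipid handling of tissue macrophages. How the RNA of such cultures differed with the loss of Asxl2 in M-CSF alone is described here. The data are 6 of the 12 libraries of the series, 3 of each genotype, taken by their titles.

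All 12 libraries came from cultured primary bone marrow of C57BL/6 mice. The controls (flox_BMM, titled ASXl2flox BMM, genotype Flox) carried floxed Asxl2. The libraries called KO_BMM here (titled ASXL2LysM BMM, genotype LysM Cre positive (KO)) carried LysM Cre, a Cre recombinase placed in the lysozyme gene Lyz2 and active in myeloid cells. Both groups spent 5 days in alpha MEM with 10% FBS and, after replating, 2 days in 2% M-CSF. The other 6 libraries (flox_OC and KO_OC) also received 50 ng/ml RANKL, which drives osteoclast formation, and are used only to ask where the genotype effect differed. The series title ties the work to myeloid Asxl2, diet induced obesity and energy expenditure. The ages and sexes of the mice and the pooling of marrow are not in the labels. No group carried Cre with intact Asxl2, so effects of Cre or of the altered Lyz2 allele cannot be told apart from those of Asxl2 loss.

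Each of the 6 libraries held 18834103 to 21667237 counts over genes, of which 0.764 to 1.13% were mitochondrial. Levels are given in CPM, that is as counts relative to the TMM-adjusted total of each library, and 3 counts, the most that a count of 0 allows, are worth 0.138 to 0.159 CPM. Changes are log2 fold changes of KO_BMM over flox_BMM from edgeR's quasi-likelihood test on the 6 libraries, and a gene was called when its Benjamini-Hochberg adjusted p was under 0.05. Whether libraries of 1 group are separate mice or cultures is not in the labels, so the p-values speak only for variation among these libraries, possibly technical. It came to a biological coefficient of variation of 4.02% among the flox_BMM libraries and 1.97% among the KO_BMM libraries. All 14 macrophage markers were measured, and their summed level was 35936 to 36960 CPM in flox_BMM and 31527 to 32321 CPM in KO_BMM. Most of this sum was Lyz2, the gene that hosts the Cre, whose mean itself fell from 20701 to 18561 CPM.

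Asxl2 (ENSMUSG00000037486, chr12:3426857-3506852, GRCm38, plus strand) stood at 90.8, 89.2 and 85.3 CPM in flox_BMM and 14.1, 14.2 and 14.6 CPM in KO_BMM. The 3 KO libraries lay far below the 3 flox libraries and close to each other (log2 fold change -2.63 with an SE of 0.052, adjusted p = 1.23e-23 by edgeR), a 6.19-fold lower mean. Which exons are floxed is not given in the labels, and since a count covers the whole gene, remaining reads may come from exons that were not deleted. Lyz2 (ENSMUSG00000069516, chr10:117277334-117282274, minus strand), the lysozyme gene that hosts the Cre, stood at 21279, 20375 and 20448 CPM in flox_BMM and 18888, 18163 and 18632 CPM in KO_BMM. Its groups did not overlap, and the KO libraries were lower by a small amount (log2 fold change -0.16 with an SE of 0.030, adjusted p = 1.12e-04 by edgeR).

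Loss of Asxl2 went with a broad shift in which the large changes were mostly falls. Of 12488 genes tested, 4688 (37.5%) were called, 2261 (18.1%) higher and 2427 (19.4%) lower in KO_BMM. Most of these were small: the median absolute log2 fold change was 0.28 among called genes and 0.13 among all tested, and 2227 called genes moved by no more than 1.2-fold. Beyond 2-fold there were 477 called genes (3.82%), of which 106 (0.849%) rose and 371 (2.97%) fell. Falls made up 43.0% of the calls up to 1.2-fold, 76.5% of the 417 calls from 2 to 4-fold and 86.7% of the 60 calls beyond 4-fold. This tilt was not only in rare RNAs. With the genes split by mean level into 4 equal sets, 75 rose and 264 fell more than 2-fold in the lowest set, and 6 rose and 12 fell in the highest, above 73.1 CPM. With scaling by library size alone, which shifts all genes up by 0.036, the calls split 3024 higher and 1999 lower (60.2% higher against 48.2%). The groups did not overlap in 5936 genes (47.5%), in 2976 of them (23.8%) with the KO libraries above.

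**Figure D1:**
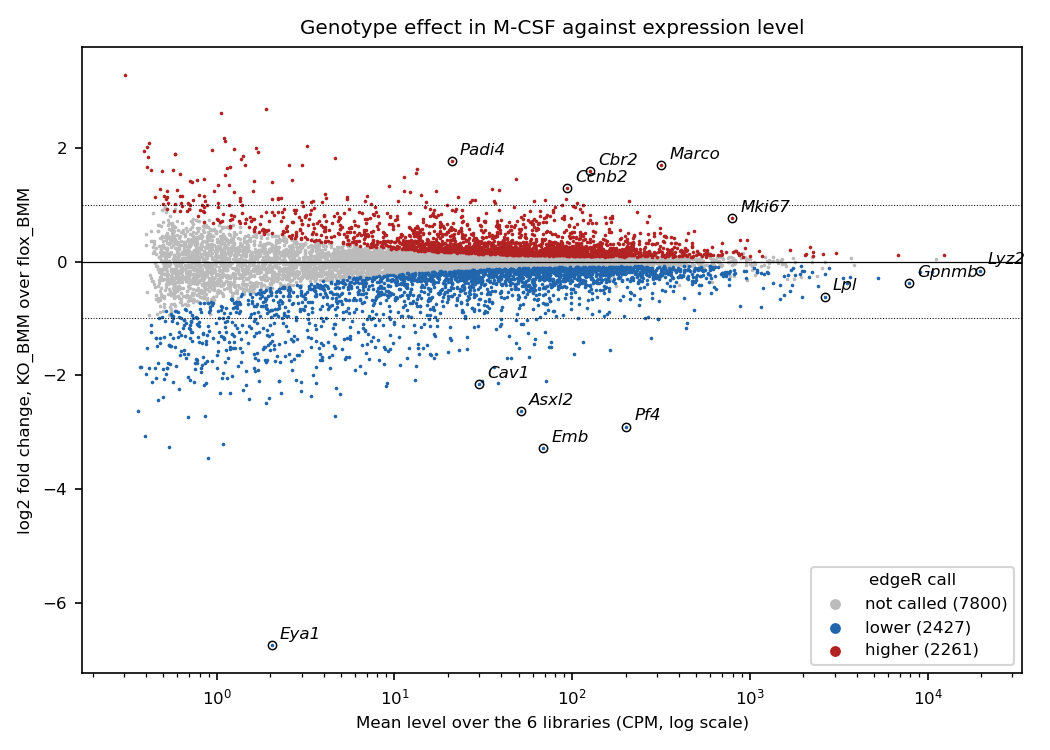
Each point is 1 of the 12488 tested genes, with its mean level over the 6 libraries in CPM (log axis) across and its log2 fold change, KO_BMM over flox_BMM, upward. Red and blue mark genes called higher (2261) and lower (2427), dotted lines mark 2-fold, and circles mark named genes; the far points are mostly below the zero line.

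The 12 genes that rose furthest among those at 10 CPM or more are given next. Marco (ENSMUSG00000026390, chr1:120474538-120505024), a class A scavenger receptor that binds bacteria and particles, stood at 149.7, 151 and 147 CPM in flox_BMM and 484, 472 and 494 CPM in KO_BMM. The 2 groups were far apart with little spread inside either (log2 fold change 1.70 with an SE of 0.033, adjusted p = 1.23e-23 by edgeR). Cbr2 (ENSMUSG00000025150, chr11:120729489-120732114), a carbonyl reductase, stood at 59.7, 65.2 and 62.7 CPM in flox_BMM and 195, 182 and 188 CPM in KO_BMM (log2 fold change 1.59 with an SE of 0.041, adjusted p = 5.25e-21 by edgeR). Padi4 (ENSMUSG00000025330, chr4:140745865-140774236), a peptidylarginine deiminase that citrullinates histones, had the largest rise of this set, with 10.9, 9.68 and 8.05 CPM in flox_BMM and 33.2, 32.6 and 31.5 CPM in KO_BMM (log2 fold change 1.76 with an SE of 0.077, adjusted p = 7.02e-16 by edgeR). Cd33, a Siglec that binds sialic acid, stood at 22.2, 27.2 and 28.2 CPM in flox_BMM and 70.4, 71.9 and 70.7 CPM in KO_BMM, with flox_BMM library 1 the lowest of all 6 (log2 fold change 1.46 with an SE of 0.060, adjusted p = 5.43e-15 by edgeR). Each of these genes had all KO libraries above all flox libraries, as the choice of the set required.

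The other members of the set rose as follows. Tln2, a talin that links integrins to actin, stood at 6.30, 6.84 and 6.56 CPM in flox_BMM and 19.9, 20.5 and 20.6 CPM in KO_BMM (1.63 on the log2 scale). Cttn, the cortactin gene, stood at 6.09, 6.06 and 5.71 CPM in flox_BMM and 16.2, 17.3 and 16.4 CPM in KO_BMM (1.48). Parvg, the haematopoietic parvin of integrin adhesions, stood at 20.8, 19.9 and 21.0 CPM in flox_BMM and 52.6, 48.1 and 48.8 CPM in KO_BMM (1.28). Tspan32, a tetraspanin of blood cells, rose by 1.56, and Rragd, a Rag GTPase that brings mTORC1 to lysosomes, by 1.32. Atp2a3, the SERCA3 calcium pump, rose by 1.26, Ryk, a Wnt-binding receptor, by 1.25, and the mitotic cyclin Ccnb2 by 1.29.

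Among the 12 largest falls at 10 CPM or more, that of Emb was the largest. Emb (ENSMUSG00000021728, chr13:117220625-117274098), which encodes embigin, a membrane glycoprotein that chaperones monocarboxylate transporters, stood at 121, 123 and 129 CPM in flox_BMM and 12.9, 12.8 and 12.7 CPM in KO_BMM (log2 fold change -3.28 with an SE of 0.052, adjusted p = 1.00e-25 by edgeR). The KO libraries were close together and all far below the flox range, and 14.8% of the exon sequence of Emb also lies in another gene. Pf4 (ENSMUSG00000029373, chr5:90772435-90773381), the platelet chemokine CXCL4, stood at 386, 353 and 325 CPM in flox_BMM and 45.2, 47.7 and 49.2 CPM in KO_BMM (log2 fold change -2.90 with an SE of 0.060, adjusted p = 1.20e-13 by edgeR). Slc44a1, a choline transporter, stood at 119, 112 and 115 CPM in flox_BMM and 25.5, 26.2 and 29.0 CPM in KO_BMM (log2 fold change -2.10 with an SE of 0.049, adjusted p = 5.42e-22 by edgeR). Adgrl2, an adhesion G protein coupled receptor, stood at 64.4, 62.1 and 59.5 CPM in flox_BMM and 14.6, 13.3 and 14.5 CPM in KO_BMM (log2 fold change -2.13 with an SE of 0.057, adjusted p = 1.29e-20 by edgeR). In these 4 genes every KO library lay below every flox library, as the choice of the set required.

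Lox, Cav1 and Itga8, which stromal cells also express, were among the 12 as well. Lox, which cross-links collagen, stood at 14.6, 13.9 and 15.7 CPM in flox_BMM and 3.19, 3.52 and 3.27 CPM in KO_BMM (-2.14). Cav1, the caveolin of membrane pits, stood at 57.5, 48.7 and 40.9 CPM in flox_BMM and 10.9, 11.02 and 11.04 CPM in KO_BMM (-2.16), and its flox libraries were spread more than its KO libraries. Itga8, an integrin subunit of mesenchymal cells, stood at 17.5, 13.8 and 12.6 CPM in flox_BMM and 3.50, 3.11 and 3.04 CPM in KO_BMM (-2.19). The markers of stromal cells and osteoblasts fell in the same libraries: 13 of the 18 on the list were tested, and 13 were called lower and 0 higher (median -1.65). Over all tested genes 19.4% were lower and 18.1% higher. The list summed to 310 to 340 CPM in flox_BMM and 106 to 116 CPM in KO_BMM. Of the 18 listed, 12 were at 1 CPM or more and 1, Lum, had no count in any of the 6 libraries. Col1a1 fell from 86.8 to 27.1 CPM. The part of these cells in the falls was not tested, and in bulk RNA fewer cells of a type and less RNA per cell cannot be told apart. Ptgs1, the constitutive cyclooxygenase (-2.08), Slco2b1, an organic anion transporter (-2.10), and Il13ra1, a receptor chain for IL-4 and IL-13 (-1.95), fell as well.

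**Figure D2:**
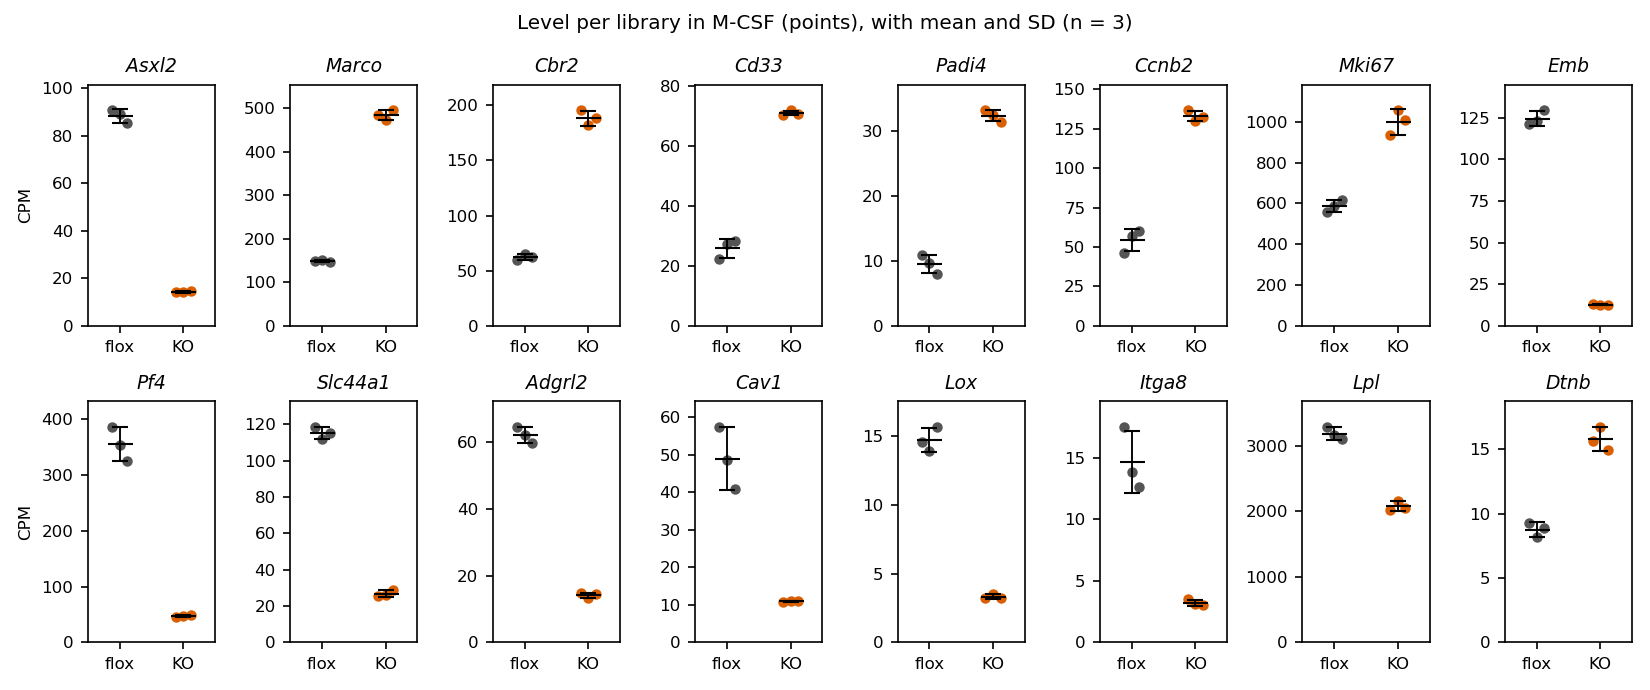
CPM of 16 genes in the 3 flox_BMM (grey) and 3 KO_BMM (orange) libraries, each panel on its own axis from 0, with the mean and SD (n = 3). Asxl2 sits at 85.3 to 90.8 CPM in flox and 14.1 to 14.6 CPM in KO. In each panel the groups do not overlap, as the choice of the ranked genes required.

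One gene was over 2 CPM in every library of 1 group and under 0.5 CPM in every library of the other. Eya1, a transcriptional coactivator and phosphatase of organ development, had 76, 87 and 71 counts in flox_BMM and 0, 1 and 1 in KO_BMM. That is 234 against 2 counts over the groups, a ratio of 124 after scaling with a 95% exact interval of 34.1 to 1034 that covers counting error only. Its log2 fold change with RANKL was -6.54, and the difference between the culture conditions did not pass (-0.20, edgeR adjusted p = 0.916).

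Genes were also ranked by the change in CPM, in which long and abundant RNAs weigh most. Marco and Mki67 were among the 8 largest gains and Lyz2, given above, was among the 8 largest losses. Ctsb, the cathepsin B protease, stood at 11914, 12058 and 11767 CPM in flox_BMM and 12908, 12801 and 12907 CPM in KO_BMM (log2 fold change 0.11, adjusted p = 0.00262 by edgeR), and 16.2% of its exon sequence also lies in another gene. Lamp1, the lysosomal membrane glycoprotein, stood at 1982, 2003 and 1952 CPM in flox_BMM and 2392, 2342 and 2390.4 CPM in KO_BMM (log2 fold change 0.26, adjusted p = 5.16e-08 by edgeR). Psap, the saposin precursor (0.11), Grn, the progranulin gene (0.15), Esyt1, an extended synaptotagmin (0.38), and Tubb5, a beta tubulin (0.16), rose too. Lpl, the lipoprotein lipase that frees fatty acids from triglyceride, stood at 3289, 3166 and 3101 CPM in flox_BMM and 2020.2, 2160.4 and 2056 CPM in KO_BMM (log2 fold change -0.62 with an SE of 0.033, adjusted p = 2.78e-14 by edgeR). Gpnmb, a transmembrane glycoprotein of lipid-laden macrophages, stood at 8776, 9127 and 8705 CPM in flox_BMM and 6887, 6833 and 6819 CPM in KO_BMM (log2 fold change -0.37, adjusted p = 7.57e-11 by edgeR). Adam8 (-0.62), the thymosin gene Tmsb4x (-0.28) and the ferritin heavy chain gene Fth1 (-0.19) fell as well. Lrp1 (-0.37, edgeR adjusted p = 0.0397) and Actb (-0.18, edgeR adjusted p = 0.0288) were near the threshold and lost the call under scaling by library size alone. Lrp1 also lost it with no filter on low counts and without flox_BMM library 1 or KO_BMM library 3. Actb also lost it with DESeq2 in place of edgeR and without KO_BMM library 3.

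Every gene of the mitotic list rose. Genes of the late cell cycle share short promoter elements: the CHR element, bound by the DREAM complex and by B-MYB with FOXM1, and CCAAT boxes bound by NF-Y. All 40 listed genes of kinetochores, the spindle and mitotic kinases were tested, and 40 of 40 were called higher, against 18.1% of all tested genes. In 40 of 40 the groups did not overlap, against 23.8% of all genes with the KO libraries above. The counts of every list below stand against the same background, 18.1% of all tested genes higher and 19.4% lower. All lists were chosen with earlier results of these data known, so these contrasts describe the lists and are no independent test. The median log2 fold change was 0.76 and the range ran from 0.43 for Spc25, a kinetochore subunit, to 1.29 for Ccnb2. Summed over the list, the level was 3362, 3610 and 3822 CPM in flox_BMM and 5949, 6094 and 5977 CPM in KO_BMM.

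The promoters of the 4 mitotic genes with the largest rises are shown to let the shared elements be seen, and that of the replication gene Mcm6 for contrast. They are RefSeq sequences of GRCm38.p6, 5′ to 3′ on the gene's strand, with 250 bases before and 50 after the start. Capitals mark TTTGAA (the CHR letters) and CCAAT on either strand in the 4 mitotic genes, and TTTGGCGC (an E2F site) and CCAAT on either strand in Mcm6. Ccnb2 lies at chr9:70421505-70421804, minus strand, Cenpa at chr5:30666636-30666935, plus strand, Cdc20 at chr4:118437294-118437593, minus strand, Plk1 at chr7:122159185-122159484, plus strand and Mcm6 at chr1:128359656-128359955, minus strand.
Ccnb2: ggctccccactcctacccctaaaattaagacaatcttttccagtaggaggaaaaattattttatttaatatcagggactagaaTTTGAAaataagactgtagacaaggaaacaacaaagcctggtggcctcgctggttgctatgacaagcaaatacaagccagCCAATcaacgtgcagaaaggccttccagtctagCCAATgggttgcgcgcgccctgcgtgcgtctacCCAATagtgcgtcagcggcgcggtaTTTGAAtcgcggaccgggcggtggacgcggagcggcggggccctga
Cenpa: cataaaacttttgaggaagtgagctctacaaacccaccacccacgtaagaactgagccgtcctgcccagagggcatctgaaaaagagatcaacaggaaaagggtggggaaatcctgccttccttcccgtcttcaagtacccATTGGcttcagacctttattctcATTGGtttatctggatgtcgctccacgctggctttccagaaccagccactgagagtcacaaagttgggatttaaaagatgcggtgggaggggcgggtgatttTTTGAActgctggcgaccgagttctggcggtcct
Cdc20: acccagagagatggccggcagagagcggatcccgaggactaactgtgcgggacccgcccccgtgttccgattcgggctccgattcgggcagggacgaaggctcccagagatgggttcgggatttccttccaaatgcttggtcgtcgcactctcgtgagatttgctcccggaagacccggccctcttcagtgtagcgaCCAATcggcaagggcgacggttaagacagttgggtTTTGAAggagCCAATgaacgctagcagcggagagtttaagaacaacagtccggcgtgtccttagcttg
Plk1: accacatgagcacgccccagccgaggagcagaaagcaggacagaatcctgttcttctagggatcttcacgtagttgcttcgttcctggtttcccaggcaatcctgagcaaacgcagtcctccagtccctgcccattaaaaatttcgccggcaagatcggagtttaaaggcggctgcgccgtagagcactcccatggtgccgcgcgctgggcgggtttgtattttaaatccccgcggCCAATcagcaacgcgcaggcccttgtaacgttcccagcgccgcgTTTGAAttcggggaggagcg
Mcm6: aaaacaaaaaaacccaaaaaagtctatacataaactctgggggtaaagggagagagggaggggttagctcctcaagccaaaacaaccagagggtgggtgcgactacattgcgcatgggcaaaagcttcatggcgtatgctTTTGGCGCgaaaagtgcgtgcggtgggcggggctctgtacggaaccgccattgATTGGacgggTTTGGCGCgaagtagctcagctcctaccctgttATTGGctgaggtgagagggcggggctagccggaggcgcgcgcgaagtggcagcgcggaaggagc
Promoters were found for 32 of the 40 mitotic genes (33 promoters). TTTGAA or its reverse complement TTCAAA was in 22 of these 33 (66.7%), in 5 of 38 promoters of the replication and G1/S list (13.2%) and in 17.9% of all 32851 promoters. CCAAT or ATTGG was in 75.8%, 57.9% and 37.4% of the same 3 sets, and both elements together in 60.6%, 10.5% and 6.95%. TTTGGCGC or GCGCCAAA was in 0 of 33, 6 of 38 (15.8%) and 0.514%. A base could count toward more than 1 motif, and a match is a description of the letters, not a site shown to be bound.

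Each of these genes has its own place in cell division. Ccnb2, the cyclin that activates CDK1 at mitotic entry, stood at 46.3, 56.7 and 60.2 CPM in flox_BMM and 137, 130.1 and 132 CPM in KO_BMM (log2 fold change 1.29 with an SE of 0.073, adjusted p = 1.20e-07 by edgeR). Cenpa, the histone H3 variant of centromeres, stood at 39.3, 46.1 and 49.7 CPM in flox_BMM and 96.6, 93.2 and 96.2 CPM in KO_BMM (log2 fold change 1.08, adjusted p = 4.44e-11 by edgeR). Cdc20, which activates the anaphase-promoting complex, stood at 37.2, 41.3 and 39.1 CPM in flox_BMM and 82.4, 81.0 and 83.5 CPM in KO_BMM (log2 fold change 1.07, adjusted p = 3.46e-16 by edgeR). Plk1, a mitotic kinase, stood at 70.9, 79.1 and 82.1 CPM in flox_BMM and 160.1, 152 and 151 CPM in KO_BMM (log2 fold change 0.99, adjusted p = 7.11e-15 by edgeR). In all 4 the lowest KO library was above the highest flox library. Mki67, the gene of the Ki-67 antigen that coats mitotic chromosomes, stood at 556, 586 and 614 CPM in flox_BMM and 933, 1055 and 1006 CPM in KO_BMM (log2 fold change 0.77, adjusted p = 9.82e-11 by edgeR). Foxm1, which drives this programme, rose from 112 to 194 CPM (0.79), and the CDK1 partner cyclin Ccna2 rose from 164 to 299 CPM (0.87). Aurkb, Cdk1 and Top2a rose by 0.63, 0.47 and 0.53.

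Of 42 tested genes of DNA replication and of the passage from G1 to S, 10 were called higher and 7 lower, the median log2 fold change was 0.03 and the list summed to 5244 to 5430 CPM in flox_BMM and 5189 to 5217 CPM in KO_BMM. Tyms, the thymidylate synthase, stood at 43.9, 48.7 and 48.1 CPM in flox_BMM and 65.4, 59.6 and 62.5 CPM in KO_BMM (log2 fold change 0.41, adjusted p = 1.30e-07 by edgeR). The ribonucleotide reductase genes Rrm1 (0.35) and Rrm2 (0.33) rose, and of the helicase subunits Mcm6 (-0.24) and Mcm4 (-0.15) fell while Mcm2, Mcm3, Mcm5 and Mcm7 lay between -0.09 and -0.03 and were not called. Ccnd1, the D-type cyclin that M-CSF induces, stood at 977, 843 and 771 CPM in flox_BMM and 667, 639 and 651 CPM in KO_BMM (log2 fold change -0.40, adjusted p = 0.017 by edgeR), and 21.3% of its exon sequence also lies in another gene. Ccnd2 stood at 6.73, 6.26 and 6.67 CPM in flox_BMM and 1.65, 2.56 and 1.89 CPM in KO_BMM (log2 fold change -1.67, adjusted p = 4.30e-10 by edgeR), while Ccnd3 (0.32) rose, so the 3 D cyclins did not move together. Of 24 p53 targets and CDK inhibitors, 5 were higher and 8 lower. Cdkn2b, the inhibitor p15, stood at 4.36, 4.89 and 2.40 CPM in flox_BMM and 1.24, 1.55 and 1.61 CPM in KO_BMM (log2 fold change -1.40, adjusted p = 1.27e-04 by edgeR), and Gadd45a, a DNA damage gene with 19.1% of its exonic bases shared, at 4.09, 5.28 and 5.33 against 2.63, 2.24 and 1.93 CPM (-1.12). Pmaip1, which encodes the BH3-only protein NOXA, fell by 1.03 on the log2 scale. The INK4 inhibitors Cdkn2c (0.65) and Cdkn2d (0.69) and Gtse1 (0.71), a G2 and S phase gene, rose.

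**Figure D3:**
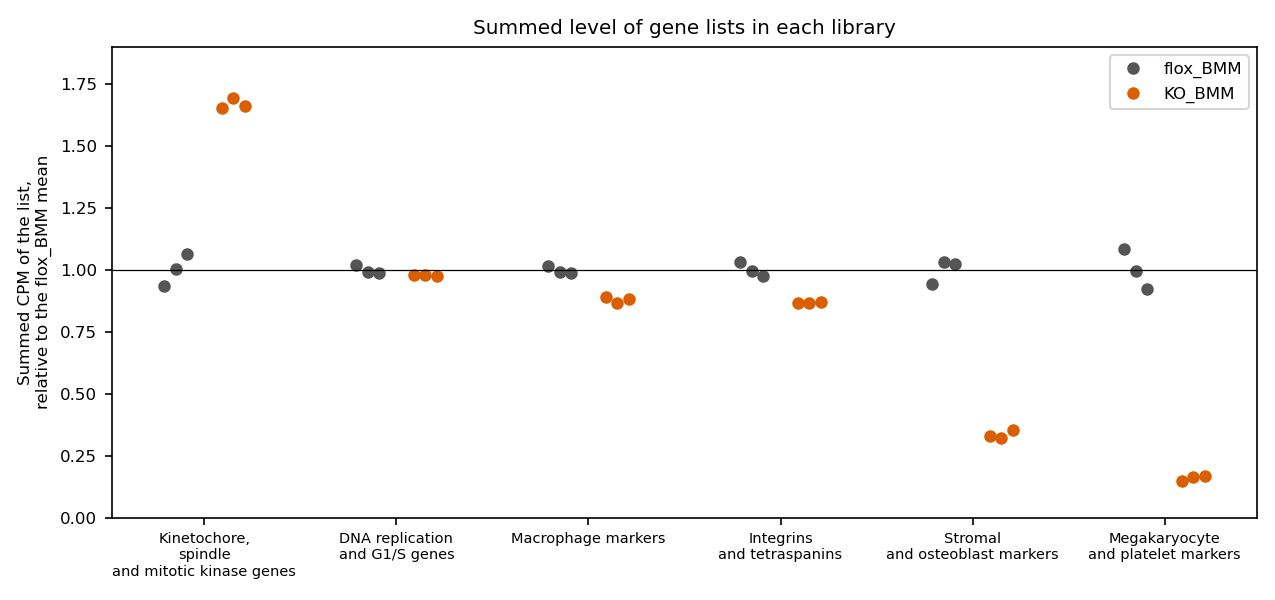
Summed CPM of 6 gene lists in each library, divided by the mean of the 3 flox_BMM libraries (line at 1). Most of the macrophage sum is Lyz2, the gene that hosts the Cre. The mitotic list stands at 5949 to 6094 CPM in KO_BMM against 3362 to 3822 CPM in flox_BMM, the stromal list at 106 to 116 against 310 to 340 CPM, and the platelet list, most of it Pf4, at 55 to 63 against 342 to 402 CPM.

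Of 10 tested genes of the ASXL and PR-DUB list, 4 were called higher and 2 lower, Asxl2 among the latter, and Asxl3 had too few counts to test. Bap1, the catalytic subunit, stood at 76.9, 74.2 and 75.0 CPM in flox_BMM and 85.0, 81.4 and 90.7 CPM in KO_BMM (log2 fold change 0.19, adjusted p = 0.00116 by edgeR). The transcription factor Foxk1, which recruits BAP1, stood at 77.0, 79.4 and 75.6 against 85.4, 86.2 and 89.7 CPM (0.17). The paralogue Asxl1 (101, 101 and 101 against 108, 111 and 109.5 CPM, 0.12) and the cofactor Hcfc1 (0.14) rose slightly. Ogt, the O-GlcNAc transferase of the complex, was at 174, 205 and 204 against 170.0, 166 and 165 CPM (-0.22). So apart from Asxl2 no tested gene of the list moved by more than 0.22 on the log2 scale.

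In Polycomb repressive complexes 1 and 2, 9 of 32 genes rose and 7 fell, against 18.1% higher and 19.4% lower over all genes tested. Jarid2, an accessory subunit that guides complex 2, stood at 95.1, 92.8 and 94.4 CPM in flox_BMM and 64.2, 61.2 and 62.4 CPM in KO_BMM (log2 fold change -0.59, adjusted p = 3.68e-12 by edgeR). Bmi1, the ring finger partner of RNF2 in complex 1, stood at 33.5, 30.9 and 31.1 CPM in flox_BMM and 22.2, 21.8 and 20.1 CPM in KO_BMM (log2 fold change -0.57, adjusted p = 1.20e-08 by edgeR). Cbx6, a chromodomain subunit, stood at 36.6, 44.3 and 41.1 CPM in flox_BMM and 59.7, 61.1 and 59.8 CPM in KO_BMM (log2 fold change 0.56, adjusted p = 3.08e-09 by edgeR), and Phf19 at 37.7, 36.9 and 39.9 against 52.4, 54.3 and 54.0 CPM (0.49). The methyltransferase gene Ezh2 rose from 66.1 to 84.1 CPM (0.35), and its partners Eed and Suz12 (-0.09 and 0.09) were not called. Most classical Polycomb targets had too few counts to test: of 30 Hox and other developmental transcription factor genes 10 had enough counts to test and 7 had none in any library. Of those tested, 2 were higher and 5 lower. Sox4, whose exons share 54.6% of their bases with another gene, stood at 3.02, 3.67 and 2.93 against 1.19, 1.69 and 1.66 CPM (-1.08), and Sox7 at 0.269, 0.440 and 0.533 against 1.39, 2.33 and 1.70 CPM (2.12). The 2 that rose were Sox7 and Lhx2 (0.69), and 1 of them, Sox7, was left without flox_BMM library 1 or 2 or KO_BMM library 2 or 3. With DESeq2 1 gene of the list was called higher and 3 lower.

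Of 27 tested genes of M-CSF receptor signalling, 10 were called lower, 2 higher (5 higher with library size alone) and 15 not at all. Csf1, which encodes M-CSF itself, stood at 17.7, 18.03 and 18.1 CPM in flox_BMM and 4.74, 5.90 and 5.93 CPM in KO_BMM (log2 fold change -1.69 with an SE of 0.090, adjusted p = 2.36e-14 by edgeR). Stromal cells also make M-CSF, and the fall of the stromal list given above was in the same libraries; its part was not tested. The receptor gene Csf1r fell from 3657 to 2993 CPM (-0.29). Of genes that encode inhibitors of ERK signalling, Dusp5 stood at 3.50, 2.74 and 2.08 against 1.03, 0.823 and 1.06 CPM (-1.51), Spred1 at 311, 288 and 305 against 232, 225 and 229 CPM (-0.40) and Spry2 at 24.5, 25.02 and 22.1 against 17.9, 18.5 and 18.1 CPM (-0.39). The 2 that rose were Pik3cd (0.37), a PI3 kinase subunit, and Akt1 (0.20), a kinase. Myc (-0.04) and Bcl2l1 (0.05) were not called.

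Of 32 macrophage transcription factors, 17 were called lower and 8 higher, with a median of -0.18 against 0.0023 over all genes. Prdm1, the repressor BLIMP1, stood at 14.98, 14.7 and 16.1 CPM in flox_BMM and 6.75, 6.31 and 5.15 CPM in KO_BMM (log2 fold change -1.33, adjusted p = 8.63e-12 by edgeR). Pparg, the lipid-sensing nuclear receptor, stood at 17.5, 17.9 and 15.2 CPM in flox_BMM and 9.74, 10.01 and 9.84 CPM in KO_BMM (log2 fold change -0.78, adjusted p = 1.26e-08 by edgeR). Egr2, an M-CSF-induced zinc finger factor, stood at 8.94, 9.87 and 9.97 against 4.23, 4.75 and 3.45 CPM (-1.21), and Irf4 at 3.34, 3.52 and 4.85 against 1.19, 1.92 and 1.29 CPM (-1.40). The lineage factors Spi1 (-0.13) and Cebpa (-0.36) fell by smaller amounts, whereas Klf2 (0.44), Id2 (0.32) and Irf8 (0.08) rose.

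Of 20 tested genes of scavenging and of efferocytosis, the clearance of dying cells, 14 fell and 4 rose (median -0.21). Cd36, a receptor for oxidised lipoprotein and fatty acids, stood at 1891, 1749 and 1803 CPM in flox_BMM and 1169.9, 1163 and 1122 CPM in KO_BMM (log2 fold change -0.66 with an SE of 0.033, adjusted p = 9.08e-15 by edgeR). Itgav, the alpha v integrin, stood at 373, 334 and 317 CPM in flox_BMM and 168, 173 and 173 CPM in KO_BMM (log2 fold change -0.995, adjusted p = 1.95e-11 by edgeR), and Pros1, a bridging ligand for TAM receptors, at 70.9, 67.0 and 73.8 against 34.1, 30.6 and 33.8 CPM (-1.11). Of the TAM receptors, Axl (-0.45) fell and Mertk (0.22) rose. C-type lectin receptors had 10 of 13 lower and 1 higher (median -0.50). Clec7a, the beta-glucan receptor Dectin-1, stood at 32.9, 40.1 and 41.5 CPM in flox_BMM and 12.8, 12.3 and 14.4 CPM in KO_BMM (log2 fold change -1.54, adjusted p = 1.14e-10 by edgeR), with 31.8% of its exonic bases shared with another gene. The cluster members Clec4a2 (-0.63), Clec4a1 (-0.50) and Clec4a3 (-0.44) fell too, while Mgl2 stood at 0.377, 0.635 and 0.693 against 1.19, 1.42 and 1.47 CPM (1.25).

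Siglecs and paired receptors split, with 11 of 25 lower and 4 higher. The 4 that rose were Cd33, Cd300lf (15.7, 16.8 and 19.3 against 36.1, 36.1 and 35.1 CPM, 1.05), Lilra5 (0.80) and Treml2 (0.72). Among those that fell were Siglecf (-1.31), at under 2 CPM, Clec5a (-0.46) and the adaptor gene Tyrobp (-0.20). Of 30 Toll-like receptor and cytosolic sensor genes 14 fell and 4 rose (11 and 6 with library size alone). Tlr2, the receptor for bacterial lipoproteins, stood at 179.6, 178 and 187 CPM in flox_BMM and 103, 96.5 and 100.4 CPM in KO_BMM (log2 fold change -0.86 with an SE of 0.037, adjusted p = 3.46e-16 by edgeR). Its partner Tlr1 stood at 37.3, 40.7 and 43.5 CPM in flox_BMM and 26.8, 28.9 and 27.9 CPM in KO_BMM (log2 fold change -0.54, adjusted p = 2.08e-08 by edgeR). The flagellin receptor Tlr5 was at 1.89, 2.004 and 2.56 against 1.03, 1.01 and 0.828 CPM (-1.17) and the kinase Irak2 at 51.5, 53.1 and 53.7 against 37.7, 35.7 and 39.3 CPM (-0.49). Tlr4 (-0.02), Tlr7 (0.08) and Tlr9 (-0.02) were not called. The 4 rises were small, at 0.24 or less. Their number was 1 with DESeq2 or without KO_BMM library 1, and 2 without flox_BMM library 2 or KO_BMM library 3. Of 19 Fc receptor and complement genes 11 fell and 1 rose (2 without flox_BMM library 1). Fcrls, an Fc receptor-like gene of macrophages and microglia, stood at 156, 169 and 178 CPM in flox_BMM and 65.7, 60.1 and 63.5 CPM in KO_BMM (log2 fold change -1.41, adjusted p = 2.62e-17 by edgeR), and C1qa, a chain of the complement starter C1q, at 1516, 1527 and 1529.7 against 1184, 1157 and 1191 CPM (-0.37).

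Of 16 chemokine ligand genes tested, 9 fell and 5 rose. Beside Pf4, Cxcl2, a neutrophil attractant, stood at 3.99, 4.55 and 4.64 against 0.927, 1.65 and 1.56 CPM (-1.65), Cxcl10, an interferon-induced ligand, at 5.55, 5.57 and 5.76 against 2.16, 1.83 and 2.25 CPM (-1.43), and Cxcl16 (-0.66) and Cxcl14 (-0.54) fell at higher CPM. Cxcl12 (2.96, 3.42 and 3.52 against 0.567, 0.548 and 0.736 CPM, -2.41) is also on the stromal list, whose fall is given above. All 5 rises were CC genes. Ccl2 stood at 85.9, 68.8 and 55.8 against 146, 146 and 138 CPM (1.03) and Ccl7 at 13.95, 8.65 and 8.32 against 24.9, 23.7 and 23.7 CPM (1.23), both ligands of CCR2, and Ccl12 (1.07), Ccl3 (0.26) and Ccl4 (0.23) followed, while Ccl6 (-0.58) and Ccl9 (-0.28) fell. Of 18 receptors for chemokines and other attractants 10 fell and 3 rose. Ccr2, the receptor that brings monocytes to tissue, stood at 65.7, 73.8 and 83.7 CPM in flox_BMM and 113, 107 and 107 CPM in KO_BMM (log2 fold change 0.55, adjusted p = 7.73e-05 by edgeR). The formyl peptide receptors Fpr1 (2.96, 3.23 and 4.69 against 6.65, 5.71 and 6.21 CPM, 0.77) and Fpr2 (0.72) were the other rises. Ccr3 stood at 12.9, 13.6 and 13.5 against 6.65, 6.44 and 6.12 CPM (-1.06), and the complement receptors C5ar1 (-0.48) and C3ar1 (-0.26) fell.

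Among genes of lipid mediators, 8 of 17 eicosanoid genes were called lower and 0 higher (1 higher without KO_BMM library 2). Ptgs1 stood at 19.3, 21.4 and 22.5 CPM in flox_BMM and 4.69, 4.48 and 5.70 CPM in KO_BMM (log2 fold change -2.08 with an SE of 0.094, adjusted p = 9.51e-16 by edgeR), and the inducible cyclooxygenase Ptgs2, at very low level, at 1.78, 1.47 and 1.23 against 0.206, 0.183 and 0.276 CPM (-2.71). Pla2g7, which inactivates platelet-activating factor, stood at 342, 347 and 375 CPM in flox_BMM and 186, 179 and 173 CPM in KO_BMM (log2 fold change -0.98, adjusted p = 4.98e-17 by edgeR). The prostaglandin E2 receptor Ptger4 was at 30.5, 28.4 and 29.7 against 16.6, 17.6 and 19.5 CPM (-0.72), with 16.5% of its exonic bases shared. Of 18 purinergic and other G protein coupled receptor genes 10 fell and 0 rose (1 with library size alone). Gpr84, a receptor for medium-chain fatty acids, stood at 96.9, 90.0 and 79.6 CPM in flox_BMM and 34.6, 34.7 and 34.8 CPM in KO_BMM (log2 fold change -1.36, adjusted p = 6.44e-13 by edgeR). P2ry14 was at 4.85, 5.67 and 6.08 against 1.55, 1.46 and 1.15 CPM (-1.999) and the ecto-nucleotidase gene Nt5e at 3.99, 3.18 and 2.67 against 1.08, 0.868 and 0.966 CPM (-1.75). Of 19 growth and angiogenic factors 11 fell and 4 rose. Pdgfb (-0.98) fell from 144 to 72.6 CPM, Tgfb3 stood at 8.84, 8.26 and 9.23 against 3.71, 3.38 and 4.09 CPM (-1.23), and osteopontin, encoded by Spp1, fell from 1871 to 1251 CPM (-0.58). Gdf15 (1.02) and Vegfa (0.80) rose, and Igf1 (-0.02) and Tgfb1 (0.07) were not called.

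Of 28 integrin and tetraspanin genes 19 fell and 4 rose. Itga9, a receptor for tenascin and osteopontin, stood at 19.9, 21.9 and 20.1 CPM in flox_BMM and 6.03, 5.62 and 5.75 CPM in KO_BMM (log2 fold change -1.83 with an SE of 0.084, adjusted p = 1.10e-15 by edgeR). Itga6, a laminin receptor, fell from 624 to 347 CPM (-0.85), and Itga5 (-0.77) and Itgb7 (-1.11) fell, while Itgb1, the common beta 1 chain, was not called (0.02). Among tetraspanins, Tspan13 stood at 7.81, 7.87 and 7.52 against 1.55, 1.51 and 1.89 CPM (-2.23) and Tspan33 at 3.02, 3.08 and 1.6 against 0.670, 0.274 and 0.506 CPM (-2.42), Cd9 (-0.55) fell, and Cd81 (0.59) and Tspan32 rose. Of 7 caveolar genes 5 fell, Cavin1 at 11.05, 8.70 and 9.01 against 3.61, 3.38 and 3.45 CPM (-1.46) and Cav2 at 127, 118 and 125 against 73.8, 71.4 and 79.2 CPM (-0.72) after Cav1, and the part of the stromal cells described above in these falls was not tested. Of 32 genes of actin and its regulators 11 fell and 5 rose, but with library size alone 9 fell and 12 rose, so the balance of this list depended on the scaling. Fscn1, which bundles actin, stood at 7.11, 9.19 and 8.05 against 2.22, 3.20 and 2.21 CPM (-1.67), and Myo1e (-0.64) and Gsn (-0.56) fell, whereas Cttn, Tln2 and the haematopoietic GTPase gene Rac2 (287, 297 and 285 against 395, 385 and 388 CPM, 0.43) rose. In the Notch pathway 6 of 12 fell and 2 rose (1 with DESeq2 or without flox_BMM library 1 or KO_BMM library 1 or 3). Notch4 stood at 9.86, 8.11 and 6.88 CPM in flox_BMM and 1.65, 1.6 and 1.66 CPM in KO_BMM (log2 fold change -2.34, adjusted p = 2.77e-12 by edgeR), the ligand Jag1 at 85.1, 77.1 and 62.4 against 36.1, 39.2 and 34.8 CPM (-1.03), and Mfng, a glycosyltransferase that modifies Notch, at 2.05, 2.30 and 1.76 against 7.11, 6.99 and 7.497 CPM (1.82).

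No sterol or redox gene of the lists moved by more than 2-fold. Of 19 LXR target and cholesterol efflux genes 9 fell and 4 rose. Apoe, the lipoprotein of cholesterol export, stood at 2630.1, 2823 and 2884 CPM in flox_BMM and 2077, 2018 and 2074 CPM in KO_BMM (log2 fold change -0.43 with an SE of 0.034, adjusted p = 4.32e-11 by edgeR). Abca1, the transporter that loads it, stood at 159, 185 and 180.1 against 109, 131 and 130.2 CPM (-0.50), and the receptor gene Nr1h3 (LXR alpha) at 18.1, 20.4 and 19.4 against 14.3, 13.9 and 14.2 CPM (-0.45). The related transporter gene Abcg1 (0.31) rose, so the 2 efflux transporters moved in opposite directions. Of 24 NADPH oxidase and Nrf2 target genes 13 fell and 3 rose. Nqo1, a quinone reductase, stood at 22.8, 21.0 and 19.5 against 11.5, 12.2 and 11.8 CPM (-0.83), the cystine importer Slc7a11 at 5.87, 5.03 and 5.55 against 2.73, 2.88 and 2.62 CPM (-0.99) and Gclm, a subunit of the glutathione-making ligase, at 554, 529 and 537 against 409, 406 and 413 CPM (-0.40), while Hmox1 (-0.05) was not called.

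**Figure D4:**
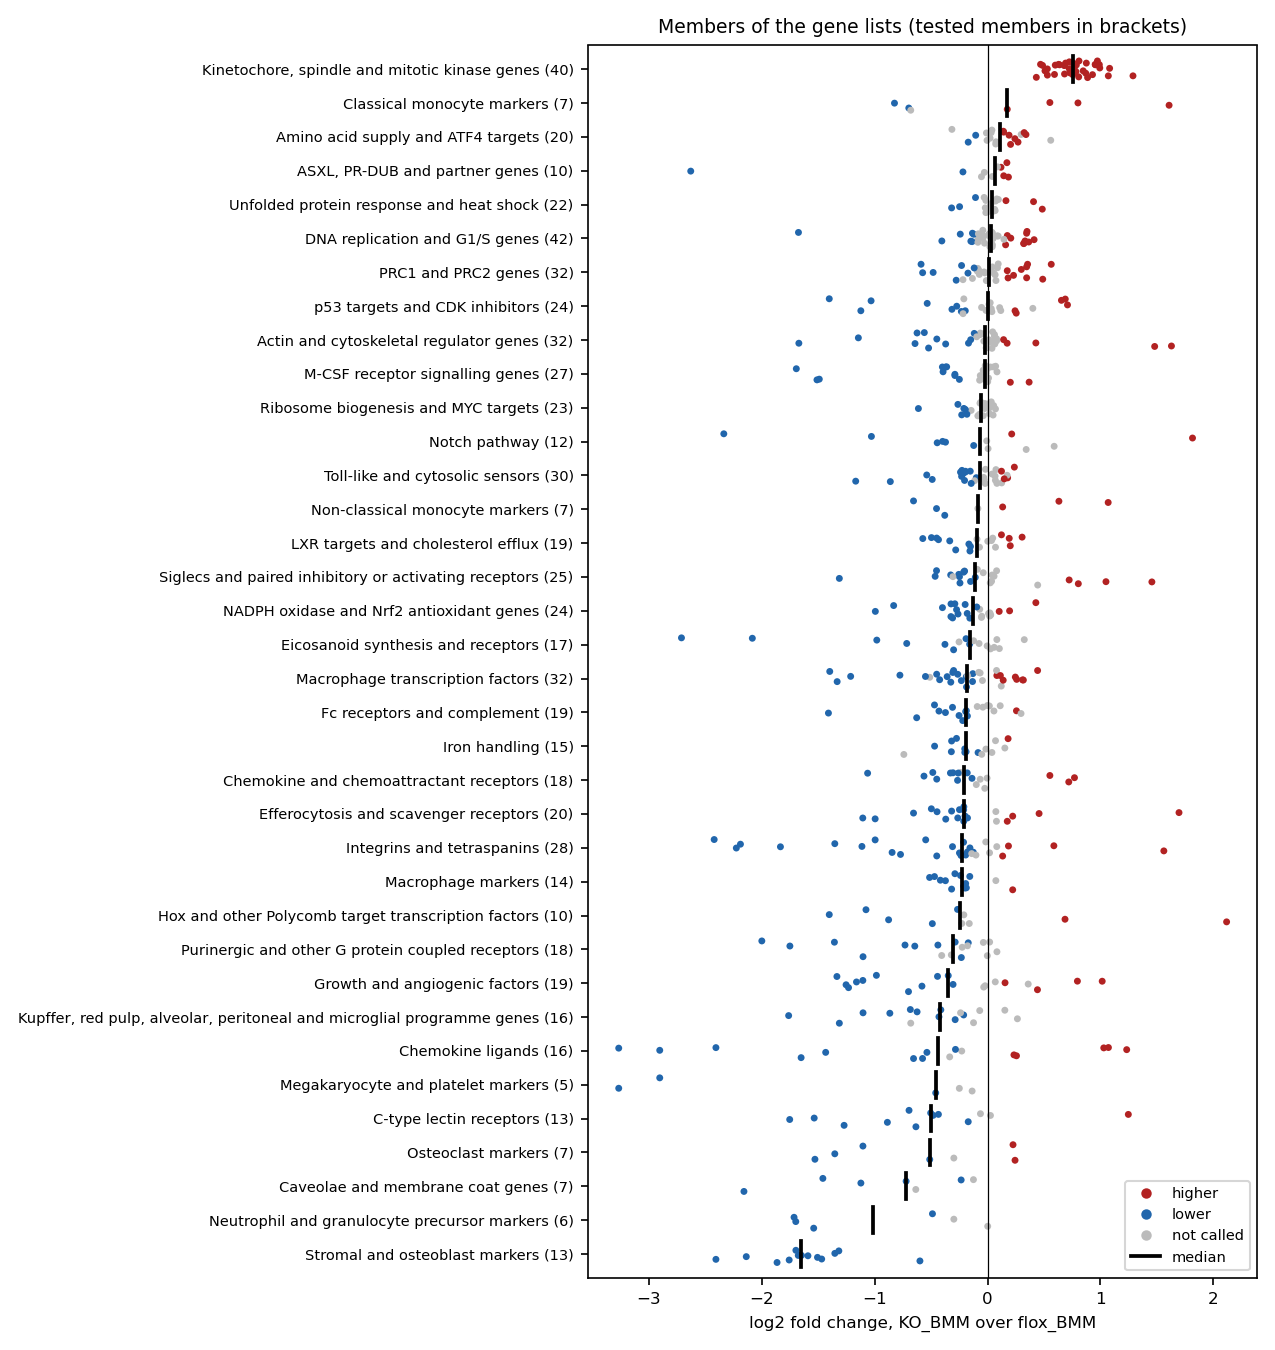
Log2 fold change, KO_BMM over flox_BMM, of every tested member of the lists with at least 5 tested members, coloured by edgeR call, with the list's median as a bar. Lists are ordered by median, from -1.65 for stromal and osteoblast markers to 0.76 for mitotic genes; the 40 mitotic points all lie to the right of 0.

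Markers of macrophages and of other cells the marrow culture could hold were read as a check. Of 14 macrophage markers 12 fell and 1 rose (2 without flox_BMM library 1), with a median of -0.23. Adgre1, the F4/80 antigen, stood at 1976, 1953 and 2012 CPM in flox_BMM and 1485, 1458 and 1503 CPM in KO_BMM (log2 fold change -0.42, adjusted p = 1.11e-11 by edgeR), and Aif1 at 71.1, 70.0 and 71.3 against 49.5, 49.7 and 49.6 CPM (-0.51), while Cd68 (0.07) was not called and Mertk rose. Of 7 classical monocyte markers 4 rose and 2 fell, and without KO_BMM library 2 only 2 rose and the median changed sign, from 0.17 to -0.07. Of 7 non-classical monocyte markers 3 rose and 3 fell, with Spn, the CD43 antigen, at 20.3, 24.7 and 25.7 against 49.8, 49.6 and 49.0 CPM (1.07) and Treml4 at 18.4, 17.2 and 15.3 against 11.9, 12.8 and 12.5 CPM (-0.45). Of 7 osteoclast markers 4 fell and 2 rose. Dcstamp, needed for cell fusion, stood at 13.5, 15.5 and 13.01 against 4.38, 5.26 and 4.92 CPM (-1.53), Atp6v0d2, a proton pump subunit, at 54.3, 55.8 and 53.3 against 27.1, 24.9 and 24.2 CPM (-1.10), and Ctsk (0.24) rose.

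Markers of blood cells other than macrophages were read in the same way. Neutrophil markers summed to 111 to 119 CPM in flox_BMM and 61 to 63 CPM in KO_BMM. Most of the flox_BMM sum was Mmp8, and 9 of the 14 listed markers were below 1 CPM. Of 6 tested 4 fell, and Ly6g had no count. Mmp8, a collagenase, stood at 70.2, 67.1 and 70.4 against 22.4, 21.3 and 20.4 CPM (-1.70), and Csf3r, the G-CSF receptor gene, at 30.5, 35.3 and 39.2 against 33.7, 34.9 and 36.5 CPM (0.00, not called). S100a8 (-0.49) lost its call with DESeq2 and without flox_BMM library 1 or KO_BMM library 2. Of the platelet markers 3 of 5 tested fell, Gp6 had no count, and Pf4 made up most of the sum. Ppbp was at 0.733 to 1.19 CPM in flox_BMM and, with at most 2 counts a library, below 0.11 CPM in KO_BMM. The part of granulocytes and megakaryocytes in the falls of Mmp8 and Pf4 was not tested. Dendritic cell markers had 2 of 3 tested lower (1 with DESeq2 or without flox_BMM library 2 or KO_BMM library 2). B cell markers had 2 of 4 lower and 1 higher, and endothelial markers 2 of 4 lower and 1 higher. The 2 T and NK cell markers tested, Il7r (-0.75) and Cd4 (-0.70), fell, while Cd3g, Cd8a, Nkg7, Ncr1 and Gzma had no count. The 1 adipocyte marker tested, Adipor2, fell (-0.14), and no mast cell or erythroid marker had enough counts to test. All 6 libraries held counts of Y-linked genes and at most 1 of Xist.

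Genes next to the 2 altered loci were examined separately. Within 1 Mb of Asxl2, 8 of 14 tested genes (57.1%) were called, 3 higher and 5 lower, against 37.5% of all genes, and within 5 Mb 9 of 24 (37.5%). Efr3b, 535.7 kb away, stood at 26.3, 23.3 and 21.4 CPM in flox_BMM and 10.2, 12.3 and 9.84 CPM in KO_BMM (log2 fold change -1.13, adjusted p = 5.83e-10 by edgeR). Dtnb, the dystrobrevin gene 145.5 kb away, stood at 9.27, 8.16 and 8.85 CPM in flox_BMM and 15.7, 16.7 and 14.9 CPM in KO_BMM (log2 fold change 0.85, adjusted p = 3.84e-09 by edgeR). Between them, Dnmt3a, a DNA methyltransferase, was not called (160.4, 173 and 172 against 159.5, 170.4 and 169 CPM, -0.02). The antisense gene 1110002L01Rik ends at base 3427011, 155 bases inside the span of Asxl2, and was at 1.78, 1.47 and 1.65 against 1.03, 1.10 and 0.736 CPM (-0.77, edgeR adjusted p = 0.00992). Since 67.1% of its exonic bases overlap other genes and the counting ignored strand, its reads cannot be told apart from theirs. The call of 1110002L01Rik was lost with DESeq2 and without KO_BMM library 3. Rab10 (-0.20), Adcy3 (0.22) and Cenpo (0.26) changed little, the last 2 sharing 22.1 and 22.5% of their exonic bases, Gm26520 and Dnmt3aos were called lower at about 1 CPM (-1.57 and -0.56), and Kif3c, Ncoa1, Dnajc27, Ptrhd1 and Rab10os were not called. The call of Gm26520 was lost without flox_BMM library 2. That of Dnmt3aos was lost without any 1 of the 6 libraries and with DESeq2, library size alone or no filter. Within 1 Mb of Lyz2, 5 of 13 (38.5%) were called, none beyond 0.23 on the log2 scale. Lyz1, the neighbouring lysozyme gene, stood at 85.3, 81.5 and 82.1 against 96.4, 94.2 and 101 CPM (0.23) and Mdm2 at 173, 166 and 157 against 146, 144 and 143 CPM (-0.20). Yeats4, Nup107 and Mdm1 were close to the threshold (edgeR adjusted p = 0.0347, 0.0188 and 0.0467), and the groups overlapped in Yeats4. Each of these genes lost its call with DESeq2 and without at least 3 of the 6 libraries, left out 1 at a time.

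The genotype effect was then compared between M-CSF and RANKL cultures. The 2 comparisons share no library, but whether the M-CSF and RANKL cultures came from the same mice is not in the labels. The difference of the genotype effects was tested in 1 fit to all 12 libraries. In it 2850 of 13030 genes (21.9%) were called, and 41.3% of genes were called by genotype with RANKL. Of the 475 genes that were called beyond 2-fold in M-CSF and present in that fit, 384 were called in the same direction with RANKL, 0 in the opposite direction and 91 not at all, and the difference was called in 107. Over all 4686 genes called in M-CSF, 2655 were called in the same direction with RANKL, 274 in the opposite one and 1757 were not called, and the difference was called in 1771.

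In the mitotic list the rise was smaller with RANKL: the difference was called in 38 of 40 genes, and the median log2 fold change was 0.76 in M-CSF and 0.32 with RANKL, where 38 were still called higher. In the stromal list the difference was called in 0 of 13 genes, with medians of -1.65 and -1.52, and 13 fell in each condition. For macrophage markers the difference was called in 12 of 14: with RANKL 6 were higher and 3 lower, and 5 were called in opposite directions. For Toll-like and cytosolic sensors the difference was called in 17 of 30, 8 were called in opposite directions, and 20 were higher and 1 lower with RANKL. Tlr2, for example, changed by -0.86 in M-CSF and 0.05 with RANKL (difference -0.92, edgeR adjusted p = 3.00e-21). Pparg changed by -0.78 and 0.03 (difference -0.81, edgeR adjusted p = 4.70e-09), and Adgre1 by -0.42 and -0.05 (difference -0.37, edgeR adjusted p = 3.12e-11). Genes whose effect did not differ detectably included Emb (-3.28 and -3.27), Lox (-2.14 and -2.19) and Parvg (1.28 and 1.30), with edgeR adjusted p = 0.953, 0.891 and 0.882 for the difference.

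**Figure D5:**
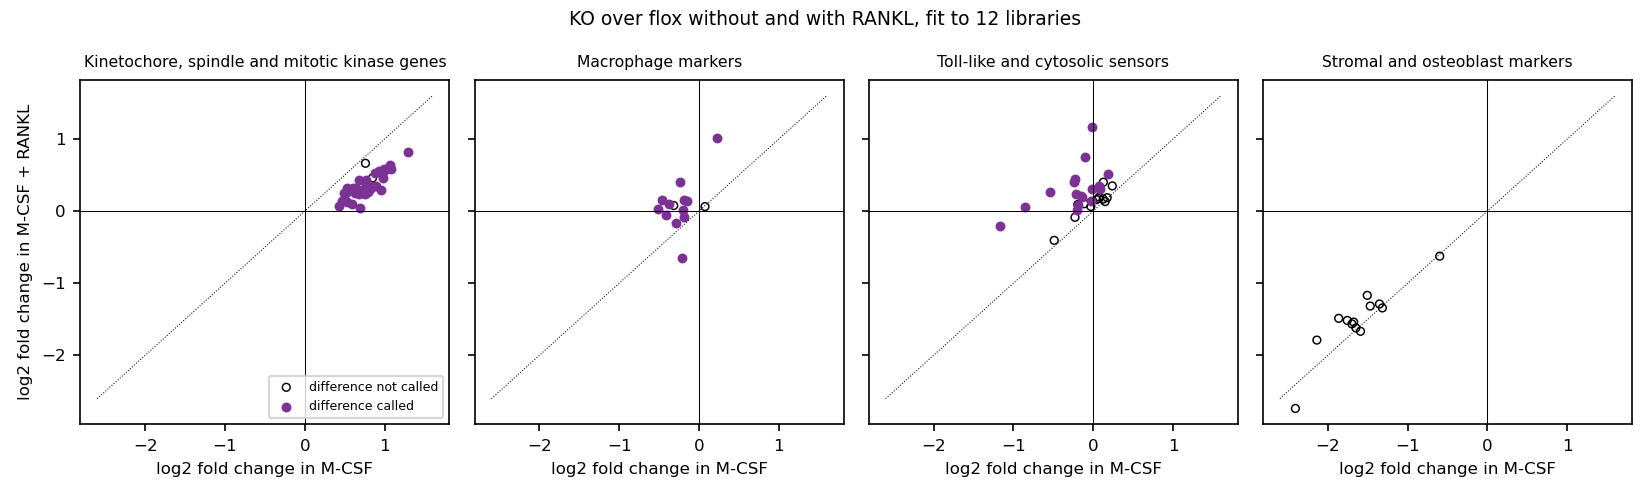
Log2 fold change, KO over flox, without RANKL (across) and with it (upward) for 4 gene lists, from the fit to 12 libraries; filled points are genes whose difference was called and the dotted line marks equal effects. Mitotic genes lie below the line on the side of a rise in both (38 of 40 filled), stromal markers lie along it (0 of 13 filled), and macrophage markers and sensors lie mostly above it.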

How the data were processed

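The 12 files hold raw counts per gene as deposited by the authors, without normalization. The submitters' processing notes name STAR 2.0.4b and GRCm38. Counting was done with featureCounts 1.4.5-p1 over exons of Ensembl release 76, per the file headers, with strand setting 0, so reads of antisense or overlapping genes cannot be told apart. Per the labels' protocols, oligo-dT was used on DNase-treated RNA. Of 41388 genes listed, 1134 with 0.136% of counts had no symbol in the GENCODE annotation used and were tested but not named.

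Groups came from the sample titles. KO_BMM and flox_BMM were compared in edgeR 4.0.16 (R 4.3.3) by the quasi-likelihood F test, with TMM scaling, the tool's group filter on low counts and robust estimation. The fit held the 6 M-CSF libraries only, the groups of this comparison. SE is the size of the log2 fold change divided by the square root of F. The difference between culture conditions came from a fit to all 12 libraries. The procedure was tested on simulated data. No library repeated another (chi-square over degrees of freedom 1.42 to 5.05 between replicates). Intervals cover counting error only.

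Members and 44 lists were chosen with earlier results of these data known. The rule named Asxl2, Lyz2, the 12 largest rises and falls without overlap at 10 CPM or more, the 8 largest CPM gains and losses, up to 4 called members of each list by size at 1 CPM or more, genes within 1 Mb of either locus, and genes under 0.5 CPM in one group and over 2 CPM in the other. Unnamed gene models, mitochondrial and ribosomal protein genes stayed out of the rankings. A few genes under the rule are not reported here. Other list members were named after their values were seen. Of 201 genes under the rule 187 were called, and in 14 another gene covered over 10% of the exons. Of the listed symbols 2 matched no gene. Alternatives were DESeq2 1.42.0, library size or RLE scaling, no filter, all 12 libraries, a replicate block and leaving out each library.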

Additional observations from a re-analysis of the deposited data

Results flagged for a closer look

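The genotype effect was compared between M-CSF cultures (BMM) and RANKL cultures (OC) in the fit to 12 libraries. Of the 201 genes named by rule, 94 had a called difference, and 22 of these either were called in opposite directions in the 2 conditions (11 genes) or differed by more than 1 on the log2 scale (13 genes). Their values follow, as log2 fold changes of KO over flox. The level in the controls differed widely between the conditions for some of them. Cav1 had a mean of 49.0 CPM in flox_BMM and 497 CPM in flox_OC, Itga8 of 14.7 and 2.26 CPM and Itga9 of 20.6 and 2.47 CPM. For Adgrl2 the means were similar, at 62.0 and 58.1 CPM.

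Opposite calls, lower in BMM and higher in OC, were found in Lrp1 (-0.37 in BMM and 0.28 in OC, difference -0.65, edgeR adjusted p = 0.00481), Tlr1 (-0.54 in BMM and 0.27 in OC, difference -0.80, edgeR adjusted p = 5.91e-08), Fcgr1 (-0.47 in BMM and 0.15 in OC, difference -0.62, edgeR adjusted p = 8.30e-10), C1qa (-0.37 in BMM and 0.10 in OC, difference -0.47, edgeR adjusted p = 5.29e-14), Abca1 (-0.50 in BMM and 0.34 in OC, difference -0.83, edgeR adjusted p = 4.16e-04), Ptger4 (-0.71 in BMM and 0.26 in OC, difference -0.97, edgeR adjusted p = 1.24e-11), Treml4 (-0.45 in BMM and 0.33 in OC, difference -0.78, edgeR adjusted p = 5.08e-07), Vcan (-0.82 in BMM and 0.39 in OC, difference -1.21, edgeR adjusted p = 1.06e-08) and Lyz2 (-0.16 in BMM and 0.14 in OC, difference -0.29, edgeR adjusted p = 1.13e-09). The opposite pattern, higher in BMM and lower in OC, was found in Blnk (0.14 in BMM and -0.10 in OC, difference 0.24, edgeR adjusted p = 2.09e-05) and Mdm1 (0.19 in BMM and -0.91 in OC, difference 1.11, edgeR adjusted p = 1.23e-13). The Lrp1 call in BMM was lost with library size alone, with no filter and without flox_BMM library 1 or KO_BMM library 3. The Mdm1 call was lost with DESeq2 and without flox_BMM library 2 or any 1 of the KO_BMM libraries.

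Falls that were larger in BMM than in OC by more than 1 were those of Cav1 (-2.16 in BMM and -0.29 in OC, difference -1.86, edgeR adjusted p = 7.68e-06), Nt5e (-1.75 in BMM and -0.31 in OC, difference -1.44, edgeR adjusted p = 3.47e-06), Itga8 (-2.19 in BMM and -0.90 in OC, difference -1.29, edgeR adjusted p = 2.07e-04), Itga9 (-1.83 in BMM and -0.55 in OC, difference -1.28, edgeR adjusted p = 3.70e-06), Cxcl10 (-1.43 in BMM and -0.26 in OC, difference -1.17, edgeR adjusted p = 3.80e-08), Adgrl2 (-2.13 in BMM and -1.03 in OC, difference -1.10, edgeR adjusted p = 1.54e-16), Il13ra1 (-1.95 in BMM and -0.93 in OC, difference -1.02, edgeR adjusted p = 2.24e-05) and Gpr84 (-1.36 in BMM and -0.34 in OC, difference -1.02, edgeR adjusted p = 3.87e-10). Falls that were smaller in BMM than in OC by more than 1 were those of Ccr1 (-0.56 in BMM and -1.77 in OC, difference 1.204, edgeR adjusted p = 5.54e-11), Acp5 (-0.51 in BMM and -1.70 in OC, difference 1.19, edgeR adjusted p = 4.71e-18) and Prdm1 (-1.33 in BMM and -2.37 in OC, difference 1.04, edgeR adjusted p = 1.63e-08), a chemokine receptor, the osteoclast acid phosphatase and a transcriptional repressor.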

How the results depend on the processing

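No alternative reversed a called result, though with library size alone the medians of the M-CSF signalling and actin lists went from -0.02 to 0.01. The number of genes called, 4688, was 3460 with DESeq2, 5023 with library size alone, 4687 with RLE scaling, 4818 with no filter and 5203 with all 12 libraries in the fit. Of the 4688 genes, 3420 were also called by DESeq2 and 4676 with all 12 libraries. Leaving out 1 library at a time gave 3805 to 4869 genes, 511 to 530 beyond 2-fold, 106 to 129 of them higher and 392 to 411 lower, and -2.65 to -2.61 for Asxl2. Genes higher by more than 2-fold numbered 175 with no filter against 106, since more genes of low count were then tested. The difference between culture conditions was called in 2850 genes, in 2072 with DESeq2, and in 2447 to 3289 with 1 library left out. The replicate block gave 4690 calls, 4578 of them shared. The replicate numbers are not tied to animals or days in the labels, and same-numbered libraries did not deviate together (correlations of 0.0272, 0.0212 and -0.0073), so the block was not used further. Of the named genes 12 lost their call under at least 1 alternative, and 10 of them did so with DESeq2. Trib3, Cd300e and Batf3 are among those not noted above. Counts of members moved by over 1.5 times in 15 lists, mostly counts of 5 or fewer. Of 4 equal sets of genes by level, 25.4% of the lowest were called and 50.7% of the highest, and the part of depth in this was not tested.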

Other observations

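Of 20 genes of amino acid supply and ATF4 targets 8 rose, 2 fell and 10 were not called, against 18.1% higher and 19.4% lower over all genes. The summed levels of the groups overlapped. The 2 falls were lost with DESeq2, with library size alone and without any 1 of the libraries except flox_BMM library 3. Psat1, of serine synthesis, stood at 72.4, 71.1 and 67.9 CPM in flox_BMM and 89.8, 90.5 and 84.4 CPM in KO_BMM (log2 fold change 0.32, adjusted p = 5.76e-07 by edgeR). Slc7a5, a leucine importer, stood at 32.4, 29.1 and 27.9 against 39.6, 34.8 and 38.9 CPM (0.34), and the tRNA synthetase genes Sars (0.27), Wars (0.24) and Gars (0.20) rose. Of 22 genes of the unfolded protein response and heat shock 3 rose and 3 fell (7 and 2 with library size alone). Herpud1 stood at 20.6, 20.1 and 21.5 against 27.4, 26.6 and 28.3 CPM (0.41), and Hspa5 was not called (-0.02). Of 23 ribosome biogenesis genes and MYC targets 6 fell and 0 rose (2 rose without flox_BMM library 1). Odc1, the rate-limiting enzyme of polyamine synthesis, stood at 27.3, 24.2 and 24.3 against 17.9, 16.4 and 15.4 CPM (-0.61). With RANKL 19 of these 23 were called lower.

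Of 15 iron handling genes 8 were called lower, 1 higher and 6 not at all. Slc11a2, the iron importer DMT1, stood at 75.6, 76.7 and 74.3 CPM in flox_BMM and 55.5, 55.2 and 53.1 CPM in KO_BMM (log2 fold change -0.47, adjusted p = 8.22e-10 by edgeR), the transferrin receptor gene Tfrc at 359, 318 and 323 against 277, 267 and 282 CPM (-0.27) and the haptoglobin receptor gene Cd163 at 27.5, 30.6 and 25.7 against 22.9, 22.1 and 22.3 CPM (-0.32). Of 16 genes typical of macrophages in particular tissues 10 were called lower, 0 higher and 6 not at all. Vcam1, of red pulp macrophages, stood at 2.75, 4.20 and 3.52 against 0.824, 1.10 and 1.15 CPM (-1.76), Olfml3, of microglia, at 118, 103 and 87.6 against 55.9, 59.0 and 54.1 CPM (-0.87) and Cd5l (-0.68), of Kupffer cells, fell from 31.4 to 19.6 CPM. The stromal markers described above fell in the same libraries, and the part of stromal cells in the falls of Vcam1 and Olfml3 was not tested. By chromosome the share of genes called ran from 32.1% on chromosome 7 to 42.8% on chromosome 6.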
